A study of Rattus norvegicus with 10 samples.

Results

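The genes described are Spp1 and Fn1, which encode the secreted adhesion ligands osteopontin and fibronectin, and Cd44 and Itgb1, which encode receptors for them. All probe sets annotated with 1 of these symbols alone were taken, which gave 11 of the 8799 probe sets on the array: 1 for Spp1, 5 for Fn1, 4 for Cd44 and 1 for Itgb1. The genes were chosen by their measured difference between cultures with interferon gamma (IFN-gamma) and controls, the contrast described below. That difference is therefore described for these 4 genes, and the statistics printed beside it are not independent evidence.

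The RNA came from microglia, the macrophages of the brain, cultured from neonatal rat brain with 1 brain per flask in medium containing 15% fetal calf serum. The treated dishes received fresh medium with 100 U/ml IFN-gamma for 16 hours, and the control dishes received fresh medium only. Neither group carried a genetic change according to the labels, and on day 15 each dish of either group had been seeded with 100000 cells. The 5 IFN-gamma arrays came from 3 cultures, with culture 1 measured on 3 technical arrays (1a, 1b and 1c), and the 5 control arrays came from 5 cultures (1, 2, 3, 5 and 6). The culture was the replicate.

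Osteopontin is a secreted phosphoprotein that carries the integrin-binding RGD sequence and can also bind CD44. Macrophages and reactive microglia are known to make it. Fibronectin is a large glycoprotein that is laid down as fibrils and bound through its own RGD sequence, mainly by integrins that contain the beta-1 chain. Itgb1 encodes that beta-1 chain, which pairs with many alpha chains, and Cd44 encodes a surface glycoprotein best known as the receptor for hyaluronan.

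The array median of the deposited signal ran from 11.1 to 23.7 over the IFN-gamma arrays and from 7.4 to 20.2 over the control arrays, so the arrays were quantile normalised. Levels below are normalised log2(signal + 16) values unless a deposited signal is named. A signal of 0 lies at 4 on this scale, so differences of dim probe sets are understated. Of the 16 microglia and macrophage markers listed, 10 were measured, each with a signal of at least 32 on some array. The microglial marker Aif1 was at 8.24 in IFN-gamma cultures and 7.81 in control cultures, while the receptor gene Csf1r was dim, with a highest signal of 36.5 in IFN-gamma arrays and 17.1 in control arrays.

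Both ligand genes were lower with IFN-gamma and neither receptor gene was called. By the brightest probe set of each gene, Spp1 was 4.46-fold lower and Fn1 was 3.51-fold lower, with the 3 IFN-gamma cultures below all 5 controls in both. Cd44 and Itgb1 had log2 differences of -0.02 and -0.37, with overlapping cultures. In the limma fit over 8740 probe sets, 2 of the 11 probe sets passed as lower and 0 as higher at an adjusted p under 0.05. Over all probe sets 0.606% were called lower, 0.927% higher and 1.53% in either direction, and nothing is read from this count because the contrast chose the genes. The calls of Spp1 and Fn1 were lost without IFN-gamma culture 2 or 3 (limma adjusted p = 0.0541 to 0.0703). They were also lost with the replicate number as a block (limma adjusted p = 0.0596 and 0.14) and with no scaling (limma adjusted p = 0.519 and 0.19). Likewise 2 of the 11 had all IFN-gamma cultures below the controls, and 0 had them above, against 3.4% and 4.28% of all probe sets (7.68% either way).

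**Figure D1:**
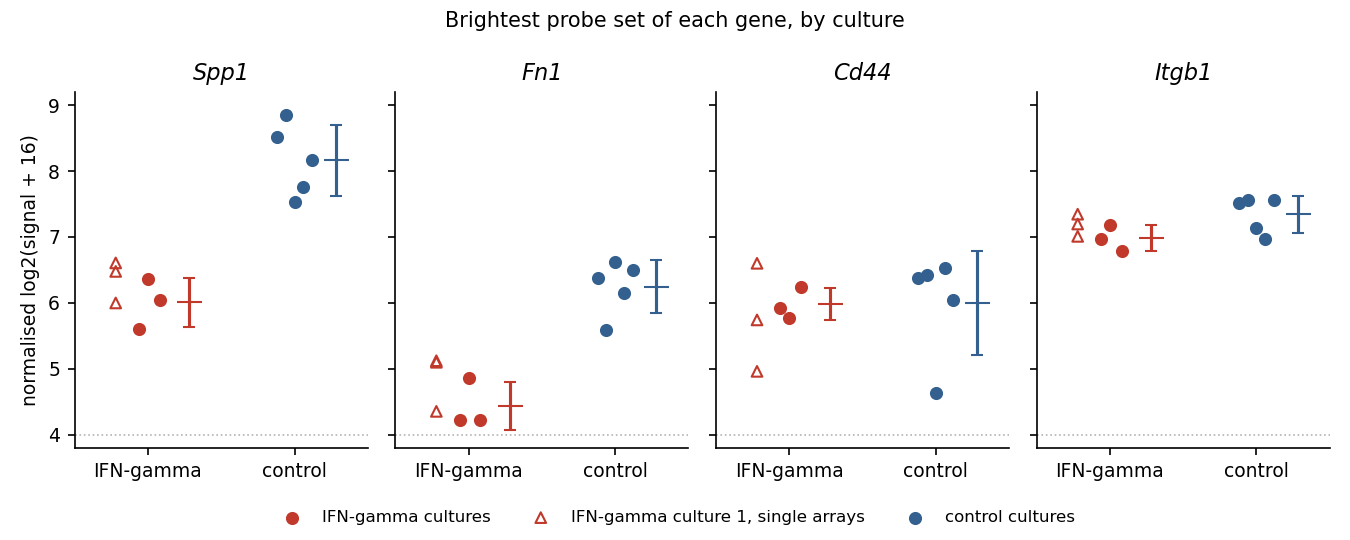
Normalised log2(signal + 16) of the brightest probe set of Spp1, Fn1, Cd44 and Itgb1 in IFN-gamma (left) and control cultures (right). Points are cultures, open triangles the 3 arrays of IFN-gamma culture 1, bars the mean ± SD (n = 3 and n = 5), and the dotted line a signal of 0. The IFN-gamma cultures lie below all controls for Spp1 and Fn1 and overlap them for Cd44 and Itgb1.

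Spp1 was measured by the probe set M14656_at. Its deposited signal was 52.2, 154.9 and 34.7 on the 3 arrays of IFN-gamma culture 1, 56.2 in IFN-gamma culture 2 and 45.9 in IFN-gamma culture 3, against 693.7, 251.4, 54.9, 196.9 and 340.9 in control cultures 1, 2, 3, 5 and 6. Without scaling, control culture 3 (array median 7.4) lay below array 1b (median 23.7) and just below IFN-gamma culture 2 (median 17.2). The unscaled signals of the groups therefore overlapped. After normalisation the levels were 6.36, 6.05 and 5.61 in the IFN-gamma cultures, against 8.52, 8.85, 7.53, 7.75 and 8.17 in the control cultures. The highest IFN-gamma culture stood below the lowest control. The means were 6.01 ± 0.377 in IFN-gamma cultures (SD, n = 3) and 8.17 ± 0.54 in control cultures (SD, n = 5), a log2 difference of -2.16 ± 0.319 (SE; limma adjusted p = 0.00921). Among all 8740 probe sets this was the 7th lowest difference. All 10 arrays gave a signal of at least 16.

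Arrays with like medians can be set side by side without any scaling, which describes the values that chose Spp1. IFN-gamma culture 3 and control culture 1 had array medians of 20.9 and 20.2, and Spp1 signals of 45.9 and 693.7. For IFN-gamma arrays 1a and 1c (medians 11.6 and 11.1) the Spp1 signals were 52.2 and 34.7, against 251.4 in control culture 2 (median 11.7). IFN-gamma culture 2 and control culture 5 (medians 17.2 and 18.4) gave 56.2 and 196.9. Control culture 3 (median 7.4, signal 54.9) had no IFN-gamma array of like median.

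Fn1 was measured by 5 probe sets, of which 1, X05834_at, was well above the floor in the controls. Its deposited signal was 13.5, 28.5 and 3.4 on arrays 1a, 1b and 1c, 2.7 in IFN-gamma culture 2 and 3.4 in IFN-gamma culture 3, against 91.9, 22.7, 33.1, 63.3 and 91.7 in control cultures 1, 2, 3, 5 and 6. A signal of 16 was reached on 1 of 5 IFN-gamma arrays and on 5 of 5 control arrays. IFN-gamma cultures 2 and 3 therefore lay at the floor of the measurement. The normalised levels were 4.86, 4.22 and 4.23 in the IFN-gamma cultures, against 6.37, 5.59, 6.62, 6.16 and 6.50 in the control cultures, without overlap. The means were 4.44 ± 0.366 in IFN-gamma cultures (SD, n = 3) and 6.25 ± 0.405 in control cultures (SD, n = 5), a log2 difference of -1.81 ± 0.267 (SE; limma adjusted p = 0.00921). Its size depends on the constant added before the logarithm, being -2.81 with 4 and -0.85 with 64.

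The other 4 Fn1 probe sets did not show this difference. Their log2 differences ran from -0.19 to 0.08, their cultures overlapped, and their highest signal on any array was 28.5. The brightest of them, U82612cds_at, averaged 4.98 ± 0.52 in IFN-gamma cultures (SD, n = 3) and 5.17 ± 0.206 in control cultures (SD, n = 5). Its signals were 28.5 and 26 in IFN-gamma cultures 2 and 3, the cultures in which X05834_at was at the floor, and 8.1 to 28.1 in the controls. U82612cds_g_at, designed on the same source sequence, reached 16 on 2 of 5 IFN-gamma arrays and 1 of 5 control arrays. X05831cds_at and M28259cds_at stayed under 16 on all 10 arrays. The part of the fibronectin transcript that each probe set reads is unknown here, and the lower Fn1 level rests on 1 of 5 probe sets.

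Cd44 was measured by 4 probe sets, of which M61875_s_at was the brightest. Its deposited signal was 11.2, 154 and 27.8 on arrays 1a, 1b and 1c, 67.6 in IFN-gamma culture 2 and 63.6 in IFN-gamma culture 3, against 91.6, 45.4, 4.4, 84.2 and 60.9 in control cultures 1, 2, 3, 5 and 6. The normalised means were 5.98 ± 0.244 in IFN-gamma cultures (SD, n = 3) and 5.999 ± 0.783 in control cultures (SD, n = 5). Control culture 3 stood apart at 4.64, below the other controls at 6.04 to 6.53. The log2 difference was -0.02 with a 95% interval of -0.94 to 0.90 (limma adjusted p = 0.998). These values cannot tell apart changes inside that interval, and the missing call does not show an unchanged level. Without control culture 3, the dimmest array, it was -0.36. The suffix s marks probe sets whose probes may match more than 1 transcript. The other 3 probe sets had a highest signal of 24.8 and log2 differences from 0.00 to 0.11, with overlapping cultures.

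Itgb1 was measured by rc_AI177366_at, which was bright on every array. Its deposited signal was 94, 316.6 and 73.4 on arrays 1a, 1b and 1c, 114.7 in IFN-gamma culture 2 and 174.2 in IFN-gamma culture 3, against 278.7, 107.2, 44.7, 116 and 213.3 in control cultures 1, 2, 3, 5 and 6. After normalisation the cultures ran from 6.79 to 7.18 with IFN-gamma and from 6.96 to 7.57 in the controls. The means were 6.98 ± 0.198 (SD, n = 3) and 7.35 ± 0.28 (SD, n = 5). The log2 difference of -0.37 had a 95% interval of -0.82 to 0.09 (limma adjusted p = 0.61). It was larger than the SD of either group, but the cultures overlapped. The interval does not reach the differences of Spp1 and Fn1.

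**Figure D2:**
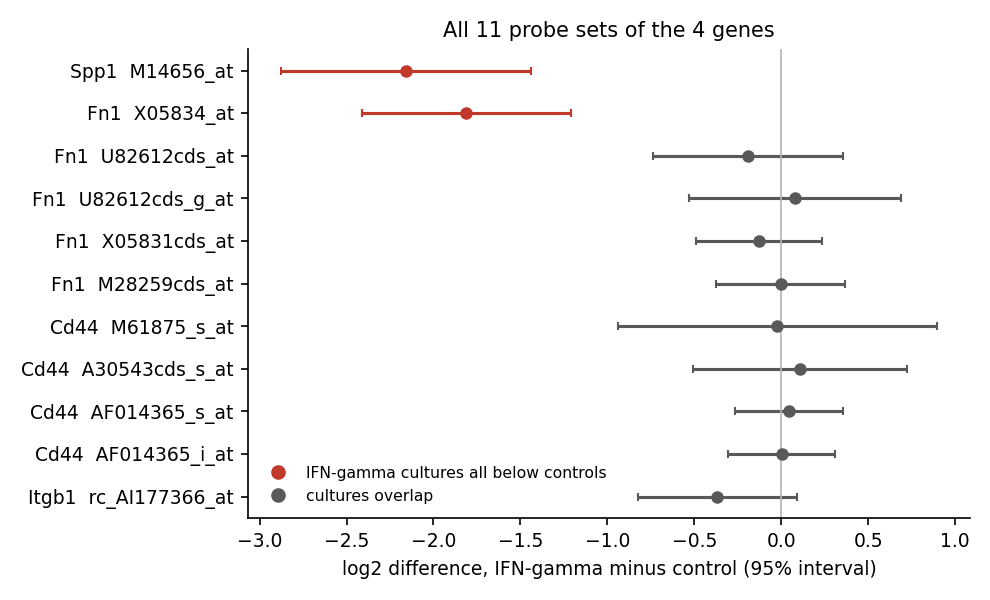
Log2 difference, IFN-gamma minus control, of all 11 probe sets of the 4 genes with the 95% interval of the limma fit (3 and 5 cultures). Spp1 at -2.16 and 1 of the 5 Fn1 probe sets at -1.81 lie apart from the other 9, which run from -0.37 to 0.11.

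The 3 technical arrays gave a measure of the error of each gene. Their SD on the normalised log2 scale was 0.32 for Spp1, 0.437 for Fn1, 0.82 for Cd44 and 0.169 for Itgb1. The SD over the 5 control cultures was 0.54, 0.405, 0.783 and 0.28 in the same order. On this scale repeat arrays of 1 culture thus differed about as much as separate cultures for Fn1 and Cd44, and less for Spp1 and Itgb1. Over the 4370 brighter probe sets the median SD was 0.34 between technical arrays and 0.471 between control cultures, and 4.71% of them varied more between technical arrays than Cd44. The differences of Spp1 and Fn1 were larger than both kinds of spread. That of Itgb1, -0.37, was larger than both of its SDs too, although its cultures overlapped between the groups. Without scaling the order of the SDs of Itgb1 was reversed, at 1.02 between technical arrays and 0.885 between control cultures. For Spp1 they were 0.914 and 1.21.

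Ligands and receptors were also compared within each culture, by subtracting the normalised log2 value of the receptor probe set from that of the ligand probe set. A common brightness of an array largely cancels in this value, which says whether 2 genes changed unequally and nothing of their relative amounts. Relative to the control mean, Spp1 minus Itgb1 was -1.64, -1.56 and -2.17 in IFN-gamma cultures 1, 2 and 3, and -0.42 to 0.46 in the controls. The mean difference was -1.79 ± 0.247 (SE), so Spp1 was 3.46-fold lower relative to Itgb1. Spp1 minus Cd44 was -1.57, -2.36 and -2.47 in the IFN-gamma cultures and -0.94 to 0.73 in the controls, a difference of -2.14 ± 0.418 (SE).

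By its brightest probe set, X05834_at, Fn1 was lower relative to both receptors as well. The other 4 Fn1 probe sets, with log2 differences from -0.19 to 0.08, were not compared in this way. Fn1 minus Itgb1 was -1.23, -1.47 and -1.64 in the IFN-gamma cultures and -0.88 to 0.59 in the controls, a difference of -1.44 ± 0.338 (SE). Fn1 minus Cd44 was -1.16, -2.27 and -1.94 in the IFN-gamma cultures and -1.08 to 1.73 in the controls, a difference of -1.79 ± 0.688 (SE), and here the nearest cultures were almost level. In all 4 ligand and receptor pairs the IFN-gamma cultures lay below the controls, as did the ligands alone. The ligands did not separate from each other (Spp1 minus Fn1, -0.35 ± 0.527 SE), nor did the receptors (Cd44 minus Itgb1, 0.35 ± 0.484 SE), and in both the cultures overlapped. With a pseudocount of 4 the difference between Spp1 and Fn1 was 0.40.

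**Figure D3:**
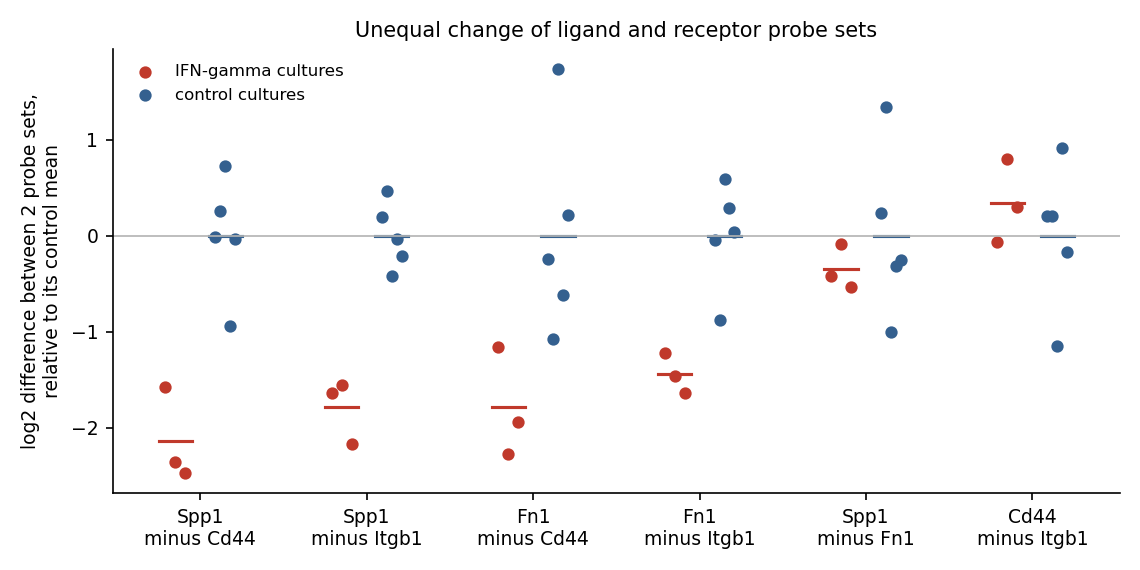
Log2 value of 1 probe set minus another within each culture, relative to the mean of that value over the controls, for 6 pairs. Each gene stands by its brightest probe set, which for Fn1 is X05834_at. Points are IFN-gamma (left) and control cultures (right) and lines are means. The 4 pairs of a ligand with a receptor lie lower in all IFN-gamma cultures, at means of -1.44 to -2.14, and the other pairs overlap.

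The sequence before a transcript start is shown for Spp1, the ligand gene with a window in the RefSeq table used, and for Itgb1, a receptor gene that did not pass the test. RefSeq windows on the GRCr8 build were matched for 3 of the 4 genes (Cd44, Itgb1 and Spp1). Each line gives the 250 bases that end at the start, 5′ to 3′ on the gene's strand, for Spp1 at chr14:5619805-5620054 on the minus strand and for Itgb1 at chr19:73602027-73602276 on the plus strand. The Spp1 window precedes a start inside the annotated gene, which spans chr14:5613569-5620695 and has a transcript that begins further upstream. The Itgb1 window ends at the edge of its gene. Capitals mark matches on either strand. The motifs are the TATA box, searched as TATAAA, the binding motif of the RUNX transcription factors, searched as AACCNCA, and the GC box bound by Sp1 and its relatives, searched as GGGCGG.
Spp1: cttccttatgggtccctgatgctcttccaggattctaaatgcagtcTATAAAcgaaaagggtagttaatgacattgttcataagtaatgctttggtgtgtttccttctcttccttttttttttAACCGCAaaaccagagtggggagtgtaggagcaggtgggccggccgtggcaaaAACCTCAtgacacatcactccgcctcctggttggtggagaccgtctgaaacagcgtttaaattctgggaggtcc
Itgb1: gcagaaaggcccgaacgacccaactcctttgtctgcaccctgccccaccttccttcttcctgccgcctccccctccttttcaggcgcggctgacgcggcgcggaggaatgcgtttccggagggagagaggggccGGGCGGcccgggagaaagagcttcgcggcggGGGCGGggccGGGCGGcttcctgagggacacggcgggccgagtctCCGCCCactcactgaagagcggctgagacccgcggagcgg
The Spp1 window held 2 RUNX matches, 127 and 74 bases before the start, and 1 TATAAA, 204 bases before it. The Itgb1 window held 4 GC boxes and had 71.2% G and C, against 46.8% in the Spp1 window. Of 33469 rat windows of this length 12.9% held a RUNX match, 12.9% a TATAAA and 30.5% a GC box. The interferon-stimulated response element, the AP-1 motif TGANTCA and the letters CCAAT, held by 3.41%, 6.34% and 34% of windows, were in none of the 3 windows matched, and the Cd44 window held none of the motifs named. A match is a description of letters only.

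Other genes of the same adhesion system are given from lists chosen with earlier results of these arrays known, each gene by its brightest probe set. Of 4736 genes, 0.887% were called higher and 0.697% lower, and the median log2 difference was -0.02. Of 18 other integrin alpha chains listed 7 were measured, and 0 were called in either direction (median 0.12, range -0.63 to 0.79). Of 7 other beta chains listed 3 were measured, and likewise 0 were called (median 0.09). In each of these lists 2 measured chains stayed under a signal of 32 on every array. Itgam, the alpha chain of the complement receptor CR3 and a microglial marker, was at 5.77 ± 0.158 in IFN-gamma cultures (SD, n = 3) and 4.98 ± 0.24 in control cultures (SD, n = 5), without overlap, but did not pass (limma adjusted p = 0.0951). Itga8, Itga1 and Itgae had log2 differences of -0.63, -0.51 and 0.21 (limma adjusted p = 0.658, 0.76 and 0.782).

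The alpha-V and beta-3 chains, which form the classical osteopontin receptor, could hardly be assessed. Itgav was at 4.75 ± 0.383 in IFN-gamma cultures (SD, n = 3) and 4.63 ± 0.454 in control cultures (SD, n = 5), and its signal never exceeded 22.3. Itgb3 was at the floor, with a highest signal of 7.8. Itgb4 and Itgb7 had log2 differences of 0.19 and 0.09 (limma adjusted p = 0.884 and 0.985).

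Of 30 other matrix and matricellular genes 0 were called by the brightest probe set, with a median log2 difference of -0.13, and 13 of them stayed under a signal of 32 on every array. In 3 of the 30 the IFN-gamma cultures lay below all controls, and in 0 above, against 173 and 197 of all 4736 genes. Sparc, which encodes a collagen-binding matricellular protein, was at 6.61 ± 0.168 in IFN-gamma cultures (SD, n = 3) and 7.39 ± 0.245 in control cultures (SD, n = 5; limma adjusted p = 0.102), and its other 3 probe sets had log2 differences of -0.03, -0.61 and -0.78. The others were Mfge8, an RGD-containing bridge to apoptotic cells (log2 difference -0.75, limma adjusted p = 0.457), and Col5a2 (-0.38, limma adjusted p = 0.515), which is mentioned only because of its values. Col1a2 and Col3a1, fibrillar collagen genes, had -0.71 and -0.55 (limma adjusted p = 0.339 and 0.425).

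The list of Cd44 ligands and partners held 15 measured genes, of which 1 was called higher and 0 lower (median -0.05, range -1.18 to 5.58). It was Cd74, the invariant chain of class II molecules, which as a surface protein forms a receptor complex with CD44 (log2 difference 5.58 ± 0.246 SE, limma adjusted p = 5.51e-06). Ezr and Msn, which encode the linkers ezrin and moesin between CD44 and actin, had log2 differences of 1.10 and 1.19 and did not pass (limma adjusted p = 0.271 and 0.259). The levels of Ezr were 6.85, 6.22 and 6.15 in the IFN-gamma cultures, against 4.21 to 5.83 in the controls, without overlap. The other Msn probe set was dim and had -0.18. Ncan, a proteoglycan gene, had 0.78 (limma adjusted p = 0.122). The lowest of the 15 were the metalloproteinase genes Mmp9 and Mmp14, at -1.18 and -0.71 (limma adjusted p = 0.403 and 0.576). Neither passed, and in both the cultures overlapped.

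Among 13 matrix proteases and cross-linking enzymes 4 were called lower and 0 higher (median -0.34). These were the cathepsin genes Ctsd, Ctsl and Ctsb and the plasminogen activator gene Plau, all of which were known to be lower in these arrays when the list was written, so the count is not independent. Ctsd had a log2 difference of -2.67 ± 0.174 SE, Ctsl -2.85 ± 0.195 SE, Plau -1.31 ± 0.206 SE and Ctsb -1.24 ± 0.21 SE (limma adjusted p = 5.17e-05, 7.41e-05, 0.013 and 0.021). The other Ctsl probe set, S85184_g_at, had -1.21 and did not pass (limma adjusted p = 0.115), while the other Ctsd probe set had -2.36 (limma adjusted p = 0.000161). The calls of Ctsb and Plau were lost in 9 and 6 of 20 alternatives, and those of Ctsd and Ctsl with no scaling (limma adjusted p = 0.421 and 0.392). The metalloproteinase genes Mmp3, Mmp7 and Mmp12 and the thrombin gene F2 encode proteins known to cleave osteopontin. These 4 genes did not pass, with log2 differences from -0.58 to -0.10. Mmp2, the highest of the 13 at 0.53, did not pass either (limma adjusted p = 0.402). Nor did Mmp9 of the Cd44 list, at -1.18 (limma adjusted p = 0.403).

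Of 19 focal adhesion genes 0 were called (median 0.22, range -0.81 to 0.92). Ptk2, focal adhesion kinase, was at 4.97, 5.21 and 4.37 in the IFN-gamma cultures, against 5.40 to 5.95 in the controls, without overlap (log2 difference -0.81, limma adjusted p = 0.185). Rhoa, Lims1 and Pfn1 had 0.62, 0.92 and 0.29 (limma adjusted p = 0.519, 0.525 and 0.576). For Pfn1 the IFN-gamma cultures lay above all controls, and for Rhoa and Lims1 the cultures overlapped. The other Lims1 probe sets had -0.02 and 0.42.

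**Figure D4:**
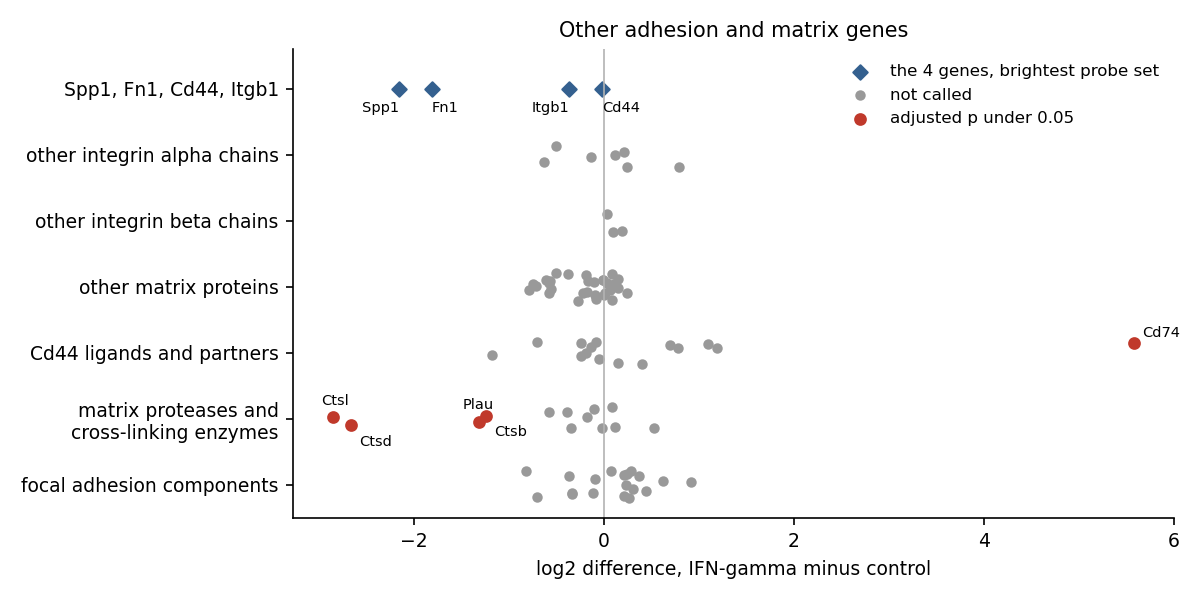
Log2 difference, IFN-gamma minus control, of the measured genes of 6 lists, each by its brightest probe set, with the 4 genes in the top row. Cd74 is the 1 called gene with a higher level, and Ctsl, Ctsd, Plau and Ctsb are the 4 with a lower level. The integrin, matrix and focal adhesion lists hold no called gene.

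The genes whose profile over the 8 cultures lay closest to each gene were taken from 3529 brighter probe sets with 1 symbol, by the root mean square difference of values relative to the control mean (log2). Closest to Spp1 were Lpl (0.162), Ctsd by its other probe set (0.313), Dab2 (0.398), Slc13a3 (0.421) and Pmp22 (0.44). Their log2 differences with IFN-gamma were -2.10, -2.36, -2.09, -1.75 and -1.69. Closest to Fn1 were Igf1 (0.314), Glul (0.351), Pmepa1 (0.377), Cxcl13 (0.383) and Arl11 (0.391), with log2 differences of -1.86, -1.66, -1.81, -2.05 and -1.84. The 2 sets have no gene in common. Cd44 was closest to Cbr1, Ptpro, Ebp, Zfp180 and Rilpl2 (0.133 to 0.192), and Itgb1 to Bmp2k, Bpnt1, Gas5, Pebp1 and Rpsa (0.123 to 0.178). All profiles share the same arrays and their normalisation. The IFN-gamma cultures enter the distance, so log2 differences close to that of the named gene follow from the choice.

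Markers of other cells were summed on the linear normalised scale, since fewer cells of a type and less RNA per cell cannot be told apart in RNA from whole dishes. Fibroblast and mural cell markers, 11 of 12 listed genes, summed to 372 to 396 in IFN-gamma cultures and 413 to 497 in control cultures (ratio 0.838, exact permutation p = 0.0357, two-sided, 0.0714 adjusted over 6 lists), where 11 genes at a signal of 0 would sum to 176. The ratio ran from 0.765 to 0.941 over 18 alternatives, and the exact permutation p was under 0.05 in 6 of them and 0.714 with no scaling. Of these 0 were called by the brightest probe set, and Lum, Pdgfrb, Tagln, Des and Postn stayed under a signal of 32 on every array. For Col1a1, 1 of 4 probe sets was lower (-1.20, limma adjusted p = 0.0239, named after its values were seen) and the others had -0.16 to 0.00.

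Astrocyte markers, 9 of 10 listed, summed to 401 to 461 in IFN-gamma cultures and 752 to 1142 in control cultures (ratio 0.505, exact permutation p = 0.0179, the smallest the 56 splits can give, 0.0536 adjusted). The glutamine synthetase gene Glul, also close to Fn1 above, carried most of this. Without Glul, a choice made after seeing the data, the sums were 243 to 270 and 248 to 387 (ratio 0.851, exact permutation p = 0.179, two-sided). Aqp4, Aldoc and Gja1 stayed under a signal of 32 on every array. Microglia and macrophage markers summed to 7298 to 8448 in IFN-gamma cultures and 2623 to 3744 in control cultures (exact permutation p = 0.0179, two-sided, 0.0536 adjusted), with C1qb, C1qc and Lyz2 called higher. Without Lyz2 the sums were 1918 to 2232 in IFN-gamma cultures and 1245 to 1476 in control cultures, and the ratio was 1.52 in place of 2.37. Cd14, Cx3cr1 and Fcgr2b had log2 differences of -0.34, -0.29 and -0.28 and did not pass (limma adjusted p = 0.609, 0.87 and 0.895). Oligodendrocyte, neuronal and endothelial markers had ratios of 0.76, 0.891 and 0.894 (exact permutation p = 0.0893, 0.339 and 0.571, two-sided). In control cultures they summed to 250 to 367, 246 to 371 and 174 to 297. At a signal of 0 they would sum to 112, 128 and 80, and this floor makes the ratios less extreme. The part of these shifts in the lower Spp1 and Fn1 signals was not tested.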

How the data were processed

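Total RNA from 3 IFN-gamma and 5 control cultures was hybridised to 10 Affymetrix rat expression arrays of 1 design. The deposited table holds 1 linear signal intensity per probe set and array. MAS5 and GCRMA stand in the submitters' processing notes without role or version, so it is unknown here how the authors made the intensities. Any 2 arrays had equal signals in at most 80 probe sets, and none was treated as a copy of another.

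Log2(signal + 16) was quantile normalised over the 10 arrays, the 3 technical arrays were averaged, and 59 array controls were dropped, which left 8740 probe sets. Groups were compared with limma 3.58.1 in R 4.3.3 (group as the only term, two-sided, Benjamini-Hochberg over 8740 probe sets, threshold 0.05). On simulated data for this comparison with 8740 probe sets, 90 of 106 differences of 2 and 31 of 94 differences of 1 (log2) were recovered. There were 4 false calls. The differences were placed in brighter probe sets only, with independent noise. Effects shared by an array and the floor were not simulated, so recovery near the floor is not given. Marker sums were compared with an exact permutation test over 56 splits. Symbols came from the platform annotation, and 0 needed an update against RefSeq (GRCr8). A gene with several probe sets stands by the one with the highest mean.

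The 4 genes and all lists were chosen with earlier results of these data known. Named are all probe sets of the 4 genes, list members past the threshold, the 4 with the smallest adjusted p in each list and the 5 genes closest to each of the 4. Aif1, Csf1r, Itgav, Mmp2, Mmp3, Mmp7, Mmp9, Mmp12, Mmp14, F2, Col1a1, Col5a2 and the single cell type markers lie outside this rule. They were picked with their values in view. A further motif searched is not reported here. In all 20 alternatives were run: scaling, pseudocounts of 4 and 64, a filter on dim probe sets (a signal of at least 32 in 3 cultures), single technical arrays, block and variance models, and leaving out each culture. The labels call the control cultures independent, do not say so of the IFN-gamma cultures, and give no batch, so p-values measure the spread between these samples. The number of arrays limits the precision.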

Additional observations from a re-analysis of the deposited data

Results flagged for a closer look

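Of 23 sets of 5 control values examined (11 probe sets, 6 differences between probe sets and 6 marker sums), 4 had 1 culture far from the others, where chance gives about 1 in 20. Cd44 by M61875_s_at was at 4.64 in control culture 3, against 6.04 to 6.53 in the other controls. Cd44 by A30543cds_s_at was at 5.01 in control culture 1, against 4.06 to 4.13 in the others. Fn1 by M28259cds_at was at 4.56 in control culture 6, against 4.08 to 4.19 in the others, all near the floor. The astrocyte marker sum was 1142 in control culture 3, against 752 to 828 in the others. Control culture 3 was also the array with the lowest median signal, 7.4.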

How the results depend on the processing

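Spp1 and the brightest Fn1 probe set kept their direction in all 20 alternatives and passed the threshold in 16 each. With no scaling the log2 differences were -1.81 for Spp1 (adjusted p = 0.519) and -1.68 for Fn1 (adjusted p = 0.19), and with the replicate block they were -2.29 (adjusted p = 0.0596) and -1.76 (adjusted p = 0.14). Leaving out single cultures gave -2.33 to -1.96 for Spp1 and -2.02 to -1.70 for Fn1, and neither passed without IFN-gamma culture 2 (limma adjusted p = 0.0541 and 0.0659) or 3 (0.0691 and 0.0703), where fewer cultures remained. Why the calls were lost with no scaling was not tested.

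Cd44 changed sign in 10 of 20 alternatives and never passed: 0.20 with no scaling, 0.079 with array medians subtracted, 0.026 with pseudocount 4, 0.26 with array 1b alone, 0.17 with the replicate block, and -0.36 to 0.11 without single cultures. Itgb1 turned to 0.080 with no scaling and ran from -0.47 to -0.27 without single cultures. The difference between Fn1 and Itgb1 was -2.41 with pseudocount 4 and -0.57 with 64, and that between Spp1 and Itgb1 was -1.31 with 64. In the 17 alternatives run for them, the 4 ligand and receptor differences kept their direction, while Spp1 minus Fn1 ran from -0.74 with pseudocount 64 to 0.40 with pseudocount 4.

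Calls over all probe sets were 81 higher and 53 lower. They were 38 and 1 with no scaling, where the median difference of all probe sets was 0.10 (against -0.02 after quantile normalisation), 27 lower with array medians subtracted, 53 and 32 with pseudocount 4, 124 higher with the 10 arrays and culture as a random block, and 17 and 5 with the replicate block. Without single cultures they were 47 to 106 higher and 21 to 50 lower. Higher calls made up 60.4% of calls, 97.4% with no scaling, 78.7% with array medians and 77.3% with the replicate block. Cultures of the same number did not deviate together (r = -0.04, 0.00 and 0.00 over 4370 brighter probe sets), and 0 of 3 IFN-gamma cultures correlated best with the control of its own number, so the numbers were not taken as pairs. Of the 5 nearest genes, 2 to 5 stayed among the nearest for Spp1, 0 to 5 for Fn1, 0 to 5 for Cd44 and 1 to 4 for Itgb1.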
